A study of Mus musculus with 8 samples.

Results

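The intercalated disc junction genes are 10 genes whose products join neighbouring heart muscle cells end to end. They were taken by gene symbol from a table of 54752 Ensembl gene IDs, and all 10 were found and passed the filter on low counts with 14665 genes in all. They are Gja1 and Gjc1 of the gap junction, Dsp, Pkp2, Jup, Dsg2 and Dsc2 of the desmosome, Cdh2 and Ctnna3 of the adherens junction, and the scaffold gene Tjp1. Their RNA was counted in isolated cardiomyocytes of 8 mouse heart libraries, 2 each in Carm1 KO at 3w, Carm1 KO at 1w, control at 3w and control at 1w. All 4 groups had the genotype Carm1fl/fl, and the hearts were mosaic, with infected and uninfected cells side by side, and no sorting is described. The KO groups had received AAV-CRE and the control groups AAV-GFP, both described as AAV9 in the extraction protocol. Carm1 encodes an arginine methyltransferase that acts on histones and other proteins.

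The intercalated disc is the step-like contact at which heart muscle cells meet. Gap junctions there are clusters of connexin channels that pass current from cell to cell, desmosomes tie the intermediate filaments of neighbouring cells together, and adherens junctions anchor the ends of the actin filaments. In the newborn rodent heart these proteins lie along the whole cell surface and gather at the cell ends in the weeks after birth, and mutations in the human desmosomal genes cause arrhythmogenic cardiomyopathy.

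The labels place injection at postnatal day 3 and 4 for the 2 libraries of each 3w group, and at day 1 and 2 for those of each 1w group. They state neither that 2 libraries of 1 group are 2 animals nor whether 1w and 3w count from birth or from injection. The p-values therefore rest on the spread within pairs of libraries, and that spread may be only technical. No Cre was given to mice without floxed alleles, so effects of Cre and of Carm1 loss cannot be told apart. Total counts per library ran between 20818285 and 53671626, and mitochondrially encoded genes took 40.7 to 47.8% of them. Counts of 4 Y-linked genes summed to 3 and 2 in 3w KO cells, against 6765 and 4814 in 3w control cells, and to 5025 and 4282 in 1w KO cells, against 1 and 0 in 1w control cells. At either age alone, a KO difference cannot be told apart from one that follows these transcripts. Carm1 had 17.3 and 17.8 CPM (counts per 1000000 of the TMM-scaled library size) in 3w KO cells, against 39.9 and 39.3 CPM in 3w control cells, and 22.2 and 22.4 CPM in 1w KO cells, against 40.5 and 39.1 CPM in 1w control cells. All 4 KO libraries lay below all 4 control libraries for Carm1, with a log2 fold change of -1.17 ± 0.060 (SE) at 3w and -0.83 ± 0.055 at 1w. Of its exon bases, 27.5% lie within the spans of other genes.

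Counting affected some genes of the disc more than others. Of 675 protein-coding genes that lie inside the span of another gene with their exons apart from its exons, 674 (99.9%) had 0 counts in all libraries, against 3467 of 14132 (24.5%) genes whose exons lie outside every other gene. This is the pattern that counting reads over whole gene spans, leaving out those in more than 1 gene, would give, but the setting is not given in the sources used here. Of the 10 junction genes, 7 have no exon bases in the span of another gene. The share is 42.8% for Dsg2, 8.68% for Ctnna3 and 5.17% for Dsp. Dsp shares 499 exon bases with Gm10129 on the opposite strand, and Dsg2 shares 330 exon bases with the antisense gene Gm16090, so reads there cannot be assigned to a gene without strand. Levels per kilobase below use exon length outside the spans of other genes, and may include reads from introns.

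Dsp, which encodes desmoplakin, the plakin that links the desmosomal plaque to intermediate filaments, had the highest level per kilobase of the 10 genes in every group. It averaged 146 CPM per kb in 3w KO cells, against 121 in 3w control cells, and 79.5 in 1w KO cells, against 96.4 in 1w control cells. Gjc1 was lowest of the 10 in every group, at 3.02 CPM per kb in 3w KO cells, 2.91 in 3w control cells, 4.77 in 1w KO cells and 4.99 in 1w control cells. Between them, Gja1, Cdh2, Jup and Pkp2 stood at 28.6 to 32.3 CPM per kb in 3w KO cells and 30.3 to 35.2 in 3w control cells. At 1w these same 4 genes were spread wider, at 17.3 to 35.8 CPM per kb in KO and 21.5 to 55.9 in control. Ctnna3, Dsg2, Dsc2 and Tjp1 stood between 5.40 and 14.5 CPM per kb in all groups. The counts behind these levels ran between 409 and 1105 per library for Gjc1 and between 21223 and 45917 for Dsp.

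**Figure D1:**
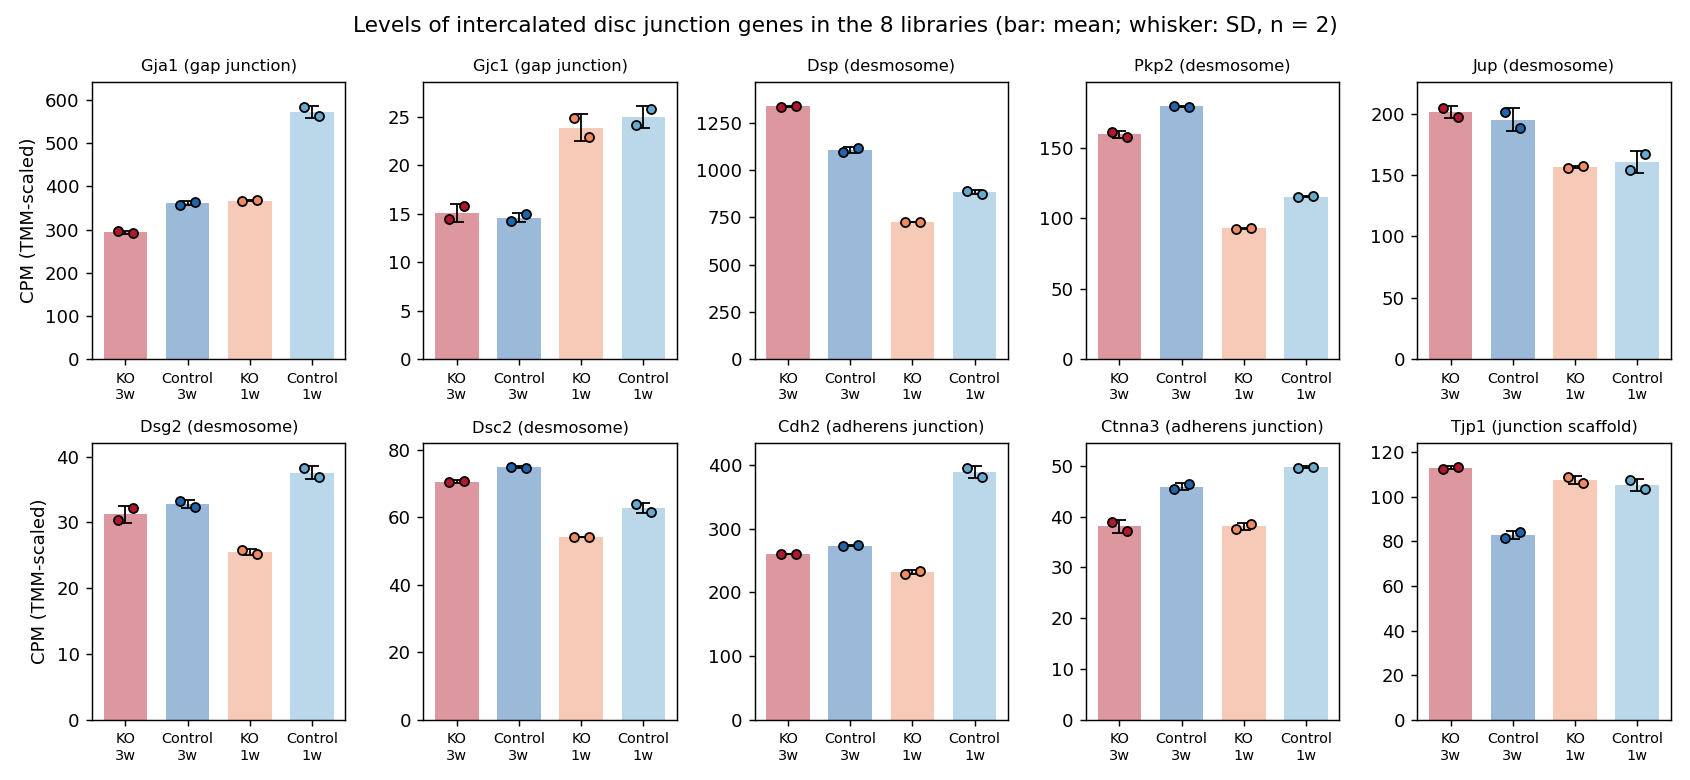
Each panel plots 1 junction gene in CPM (vertical axis, from 0) for KO and control at 3w and then KO and control at 1w; points are the 2 libraries of a group and the bar is their mean. Gja1 spans 291 to 583 CPM with its 4 groups apart, whereas the KO and control libraries of Gjc1 and Jup overlap at each age.

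The promoters of Gja1, Dsp and Jup are shown because Gja1 fell with age where Dsp and Jup rose on the TMM scale, as given below. Sequences are the 250 bases before the gene start from RefSeq on GRCm38.p6, written 5′ to 3′ along the gene's strand. They are Gja1 at chr10:56377050-56377299 (plus strand), Dsp at chr13:38151044-38151293 (plus strand) and Jup at chr11:100397791-100398040 (minus strand). Capitals mark matches, on either strand, to the AP-1 motif TGANTCA, the Sp1 GC box GGGCGG, the TATA box TATAAA and the CCAAT box.
Gja1: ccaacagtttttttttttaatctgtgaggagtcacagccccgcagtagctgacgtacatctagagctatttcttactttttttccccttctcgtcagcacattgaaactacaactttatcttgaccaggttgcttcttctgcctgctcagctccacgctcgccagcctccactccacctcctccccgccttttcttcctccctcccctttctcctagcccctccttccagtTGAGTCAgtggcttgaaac
Dsp: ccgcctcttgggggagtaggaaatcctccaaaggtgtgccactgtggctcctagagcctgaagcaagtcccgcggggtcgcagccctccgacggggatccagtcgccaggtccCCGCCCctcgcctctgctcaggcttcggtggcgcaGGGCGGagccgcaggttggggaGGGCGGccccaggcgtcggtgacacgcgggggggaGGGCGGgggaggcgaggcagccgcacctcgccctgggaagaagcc
Jup: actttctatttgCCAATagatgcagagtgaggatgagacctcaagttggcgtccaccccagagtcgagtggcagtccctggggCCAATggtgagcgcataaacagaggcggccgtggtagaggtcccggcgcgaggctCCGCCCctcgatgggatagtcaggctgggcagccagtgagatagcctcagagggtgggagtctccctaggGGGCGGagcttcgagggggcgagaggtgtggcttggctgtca
Among 32851 promoters of the same table, 6.75% hold the AP-1 motif, 32.7% the GC box, 12.4% the TATA box and 33.8% the CCAAT box. The Gja1 window had 1 AP-1 match and no GC box, at a GC content of 50%. The Dsp window had 4 GC boxes at 72.4% GC, and that of Jup 2 GC boxes and 2 CCAAT boxes at 62% GC, beside a median of 52.4% over all promoters. A match describes letters and is not a measured binding site. The table held a promoter for 5 of the 10 genes. Of those not shown, Tjp1 had 2 GC boxes and 1 Ctnna3 window had 1. On the TMM scale both genes were lower at 3w than at 1w in control. GATA, TEAD and MEF2 motifs were also searched for, and the Gja1 window had 1 GATA match, beside 16.6% of all promoters with that motif. A link between motifs and age changes was not tested.

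Gja1 encodes connexin 43, the main gap junction channel of working ventricular muscle (ENSMUSG00000050953, chromosome 10, 56377330 to 56402513, plus strand, GRCm38/mm10). It had 296 and 291 CPM in 3w KO cells, against 358 and 364 CPM in 3w control cells, and 366 and 368 CPM in 1w KO cells, against 583 and 563 CPM in 1w control cells. Its 4 groups did not overlap, and the order of levels was control at 1w, KO at 1w, control at 3w and KO at 3w, the highest mean being 1.95 times the lowest. The KO libraries at 1w stood only just above the control libraries at 3w. KO was lower than control at 3w, with a log2 fold change (the scale of all changes below) of -0.30 ± 0.031 (SE; adjusted p = 1.4e-12, edgeR's quasi-likelihood test) and at 1w, with -0.64 ± 0.031 (adjusted p = 4.6e-27). With age Gja1 fell in both, with a change of -0.32 ± 0.031 in KO (adjusted p = 2.3e-14) and -0.67 ± 0.031 in control (adjusted p = 7.1e-29). In bulk RNA, fewer cells of a type and less RNA per cell cannot be told apart.

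Gjc1 encodes connexin 45, known from the early heart and the conduction system (ENSMUSG00000034520, chromosome 11, 102799579 to 102819700, minus strand). It had 14.4 and 15.8 CPM in 3w KO cells, against 14.2 and 14.9 CPM in 3w control cells, and 24.8 and 22.9 CPM in 1w KO cells, against 24.2 and 25.8 CPM in 1w control cells. KO and control libraries overlapped at both ages, and the ages did not overlap. The KO difference was 0.056 ± 0.077 at 3w (adjusted p = 0.57), with -0.071 ± 0.063 at 1w (adjusted p = 0.39), and neither passed the threshold of an adjusted p under 0.05. With age Gjc1 fell, with a change of -0.66 ± 0.070 in KO (adjusted p = 7.2e-13) and -0.79 ± 0.070 in control (adjusted p = 9.6e-16). Gja1 made up 88.1 to 88.4% of the counts of 20 connexin genes in the 4 KO libraries, against 90.5 to 92.0% in the 4 control libraries.

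Desmoplakin RNA behaved differently from connexin 43. Dsp (ENSMUSG00000054889, chromosome 13, 38151294 to 38198577, plus strand) had 1337 and 1341 CPM in 3w KO cells, against 1095 and 1119 CPM in 3w control cells, and 728 and 728 CPM in 1w KO cells, against 891 and 875 CPM in 1w control cells. The KO libraries were the highest of all at 3w and the lowest of all at 1w, with no overlap between groups. KO was higher than control at 3w, by 0.27 ± 0.027 (adjusted p = 2.1e-13), and lower at 1w, with a change of -0.28 ± 0.027 (adjusted p = 2.4e-13). Dsp rose with age by 0.88 ± 0.027 in KO (adjusted p = 1.1e-37) and by 0.33 ± 0.027 in control (adjusted p = 7.2e-17).

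Pkp2 encodes plakophilin 2, the armadillo-repeat protein of the cardiac desmosomal plaque (ENSMUSG00000041957, chromosome 16, 16213318 to 16272712, plus strand). It had 162 and 158 CPM in 3w KO cells, against 179.9 and 179 CPM in 3w control cells, and 92.7 and 93.2 CPM in 1w KO cells, against 115 and 116 CPM in 1w control cells. KO libraries lay below control libraries at both ages, and all 3w libraries lay above all 1w libraries. The KO difference was -0.17 ± 0.034 at 3w (adjusted p = 2.9e-05), with -0.31 ± 0.036 at 1w (adjusted p = 5.3e-11). Pkp2 rose with age by 0.78 ± 0.035 in KO (adjusted p = 2.8e-29) and 0.64 ± 0.035 in control (adjusted p = 3.5e-25).

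Jup encodes plakoglobin, a plaque protein found in desmosomes and adherens junctions alike (ENSMUSG00000001552, chromosome 11, 100368958 to 100397763, minus strand). It had 205 and 198 CPM in 3w KO cells, against 202 and 189 CPM in 3w control cells, and 156 and 157 CPM in 1w KO cells, against 154 and 167 CPM in 1w control cells. KO and control overlapped at both ages, and the difference was 0.043 ± 0.036 at 3w (adjusted p = 0.33), with -0.040 ± 0.037 at 1w (adjusted p = 0.40). Jup rose with age by 0.36 ± 0.036 in KO (adjusted p = 3.8e-13) and 0.28 ± 0.037 in control (adjusted p = 1.1e-09). Its highest group mean was only 1.29 times its lowest, the narrowest span of the 10 genes.

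The desmosomal cadherins Dsg2 and Dsc2, which bridge the gap between the membranes, both lie on chromosome 18 (Dsg2 ENSMUSG00000044393, 20558074 to 20604521, plus strand; Dsc2 ENSMUSG00000024331, 20030633 to 20059554, minus strand). Dsg2 had 30.3 and 32.1 CPM in 3w KO cells, against 33.2 and 32.4 CPM in 3w control cells, and 25.9 and 25.2 CPM in 1w KO cells, against 38.2 and 36.9 CPM in 1w control cells. At 3w the highest KO and lowest control libraries almost met, whereas at 1w KO was clearly apart from control. The KO difference in Dsg2 was -0.073 ± 0.056 at 3w (adjusted p = 0.29), with -0.55 ± 0.055 at 1w (adjusted p = 4e-13). Dsg2 was higher at 3w than at 1w in KO, by 0.29 ± 0.057 (adjusted p = 8e-06), and lower at 3w than at 1w in control, with a change of -0.19 ± 0.054 (adjusted p = 0.0015). Dsc2 had 70.3 and 70.8 CPM in 3w KO cells, against 75.0 and 74.6 CPM in 3w control cells, and 54.3 and 54.2 CPM in 1w KO cells, against 63.8 and 61.6 CPM in 1w control cells. The Dsc2 groups did not overlap, but only the KO difference at 1w passed the test, at -0.21 ± 0.043 (adjusted p = 5e-05), against -0.084 ± 0.042 at 3w (adjusted p = 0.087). Dsc2 rose with age by 0.38 ± 0.042 in KO (adjusted p = 4.3e-12) and 0.26 ± 0.042 in control (adjusted p = 2e-07).

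Cdh2 encodes N-cadherin, the classical cadherin of the heart's adherens junctions (ENSMUSG00000024304, chromosome 18, 16588877 to 16809246, minus strand). It had 260.4 and 261 CPM in 3w KO cells, against 273 and 274 CPM in 3w control cells, and 229 and 234 CPM in 1w KO cells, against 395 and 382 CPM in 1w control cells. Control at 1w stood far above the other groups, and KO and control lay close together at 3w. The KO difference was -0.070 ± 0.032 at 3w (adjusted p = 0.064), and at 1w it was -0.74 ± 0.032 (adjusted p = 1.8e-29), the largest KO change among the 10 genes at either age. Without replicate 2 of control at 3w, the difference at 3w passed the test (-0.090, adjusted p = 0.021). With age Cdh2 rose by 0.17 ± 0.032 in KO (adjusted p = 4.6e-06) and fell, with a change of -0.51 ± 0.032 in control (adjusted p = 3e-22).

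Ctnna3 encodes alpha-T-catenin, which ties the cadherin complex to actin and binds plakophilin 2 (ENSMUSG00000060843, chromosome 10, 63430098 to 65003667, plus strand). It had 38.9 and 37.2 CPM in 3w KO cells, against 45.4 and 46.4 CPM in 3w control cells, and 37.6 and 38.6 CPM in 1w KO cells, against 49.7 and 49.9 CPM in 1w control cells. All KO libraries were below all control libraries, and the KO libraries of the 2 ages overlapped. The KO difference was -0.27 ± 0.050 at 3w (adjusted p = 7.4e-06), with -0.39 ± 0.048 at 1w (adjusted p = 7.7e-10). The age difference was -0.00087 ± 0.050 in KO (adjusted p = 0.99) and -0.12 ± 0.048 in control (adjusted p = 0.025). The call in control was lost in 8 of 15 alternative analyses, among them leaving out any library of control at 3w, control at 1w or KO at 3w (-0.12 to -0.094, adjusted p = 0.052 to 0.15).

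Tjp1 encodes ZO-1, a scaffold that binds connexin 43 and alpha-catenin at the edge of gap junctions (ENSMUSG00000030516, chromosome 7, 65296165 to 65527781, minus strand). It had 112 and 113 CPM in 3w KO cells, against 81.4 and 83.9 CPM in 3w control cells, and 109 and 106 CPM in 1w KO cells, against 107 and 103 CPM in 1w control cells. Control at 3w stood below the other 3 groups, and KO and control overlapped at 1w. The KO difference was 0.45 ± 0.038 at 3w (adjusted p = 8.9e-16), with 0.031 ± 0.037 at 1w (adjusted p = 0.54). With age Tjp1 fell in control, with a change of -0.35 ± 0.039 (adjusted p = 3.2e-12), and the difference in KO was 0.071 ± 0.037 (adjusted p = 0.087). Without replicate 1 or 2 of control at 3w, the KO value was 0.090 and passed (adjusted p = 0.017 and 0.016).

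At 3w, Dsp and Tjp1 were higher in KO than in control, and Gja1, Pkp2 and Ctnna3 were lower. These were 2 genes higher and 3 lower of the 10, beside 49.2% of all 14665 genes called (24.4% higher and 24.8% lower), so the count was close to the background share. The median log2 fold change of the 10 genes was -0.071, beside 0.0061 over all genes. At 1w, 7 of the 10 were lower in KO and 0 were higher, beside 43.0% of all genes called (23.0% higher and 20.0% lower). The 7 were Gja1, Dsp, Pkp2, Dsg2, Dsc2, Cdh2 and Ctnna3, and the median of the 10 genes was -0.30, beside 0.022 over all genes. On the TMM scale, Gja1, Pkp2 and Ctnna3 were lower in KO at both ages, Dsp went opposite ways, and Gjc1 and Jup passed at neither. At 3w the TMM factors were 0.917 and 0.916 in KO and 0.782 and 0.759 in control. Set against unscaled totals, Pkp2 was higher in KO at 3w. It had 4575 of 30912152 and 4535 of 31325805 counts in KO, against 7546 of 53671626 and 5076 of 37293627 in control. On those totals Ctnna3 overlapped at 3w and Gja1 stayed lower in KO. No test used unscaled totals. The comparisons at the 2 ages have no library in common.

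**Figure D2:**
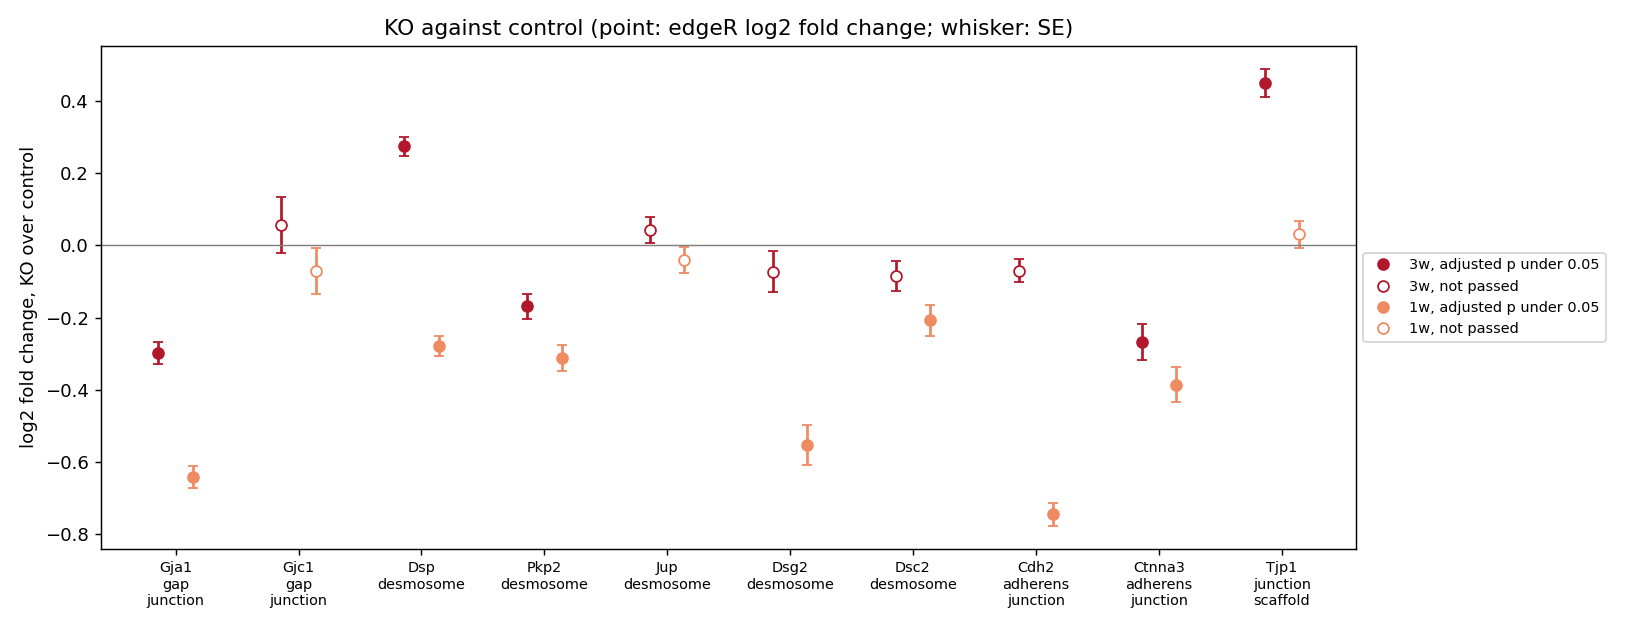
Points are edgeR log2 fold changes of KO over control (vertical axis) for each junction gene at 3w and at 1w, with whiskers of 1 SE; filled points passed an adjusted p under 0.05. At 1w every filled point lies below 0, down to -0.74 for Cdh2, whereas at 3w Dsp (0.27) and Tjp1 (0.45) lie above 0.

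Markers of cardiomyocytes and of other cell types also differed between KO and control. The counts of markers below stand beside 24.4% of all tested genes higher and 24.8% lower in KO at 3w. At 1w the shares over all tested genes were 23.0% higher and 20.0% lower. Of 8 cardiomyocyte markers, 6 could be tested, and 5 of these were lower in KO at each age, with 1 higher at 1w. Their summed level was 54639 to 55363 CPM in 3w KO cells, against 67169 to 71293 CPM in 3w control cells, and 32726 to 33060 CPM in 1w KO cells, against 34471 to 35215 CPM in 1w control cells. Actc1 and Pln, the other two, had 0 counts, and all of their exon bases lie in the spans of other genes. All 6 tested fibroblast markers of 7 were higher in KO at both ages, at 375 to 386 CPM in 3w KO cells, against 168 to 169 CPM in 3w control cells, and 1359 to 1372 CPM in 1w KO cells, against 707 to 715 CPM in 1w control cells. The remaining fibroblast marker, Tcf21, had 0 counts and also lies wholly in the span of another gene. Of 7 endothelial markers, 5 were higher and 1 lower in 3w KO cells (347 to 358 CPM in KO, against 293 to 304 CPM in control), and 7 were higher at 1w (867 to 874 CPM in KO, against 744 to 759 CPM in control). All 6 macrophage markers were higher in KO at both ages, and their sums were 89.9 to 93.2 CPM in 3w KO cells, against 57.3 to 57.8 CPM in 3w control cells, and 102 to 107 CPM in 1w KO cells, against 33.4 to 33.7 CPM in 1w control cells. Of 6 smooth muscle and pericyte markers, 6 were higher in 3w KO cells (1616 to 1622 CPM in KO, against 793 to 824 CPM in control), and at 1w 3 were higher and 2 lower (1995 to 2017 CPM in KO, against 1366 to 1416 CPM in control). Acta2 made up most of these sums, and at 1w the other 5 smooth muscle and pericyte markers summed to 277 to 281 CPM in KO, against 279 to 292 CPM in control, ranges that overlapped. Of 6 atrial markers, 2 were higher and 4 lower in 3w KO cells (591 to 605 CPM in KO, against 167 to 172 CPM in control), and 6 were higher at 1w (599 to 606 CPM in KO, against 60.4 to 62.2 CPM in control). Nppa alone gave the higher atrial sum at 3w, with 577 and 590.1 CPM in KO, against 101 and 104 CPM in control, while the other 5 summed to 14.3 to 15.3 CPM in KO, against 65.9 to 68.0 CPM in control. At 1w the other 5 summed to 410.4 to 416 CPM in KO, against 26.0 to 27.8 CPM in control. Of 8 epicardial markers, 6 were lower and 1 higher in KO at 3w (16.3 to 17.7 CPM in KO, against 26.0 to 27.5 CPM in control), and 7 were higher at 1w (45.8 to 46.9 CPM in KO, against 25.4 to 26.7 CPM in control). Of 6 erythroid markers, 4 could be tested, with 2 higher in KO at 3w (156 to 160.3 CPM in KO, against 121 to 132 CPM in control) and 3 lower at 1w (25.9 to 27.4 CPM in KO, against 54.9 to 77.1 CPM in control), and Alas2 had 0 counts. Of 3 Schwann cell markers, 2 could be tested and 1 was higher in KO at each age, at 2.51 CPM or less in sum. The part of these cell types in the values of the junction genes was not tested.

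With both ages weighted equally, Gja1, Pkp2, Dsg2, Dsc2, Cdh2 and Ctnna3 were lower in KO than in control and Tjp1 was higher. These 6 lower and 1 higher of 10 stand beside 52.8% of all genes called (25.3% lower and 27.5% higher). The change was -0.47 ± 0.022 for Gja1 (adjusted p = 7.6e-28) and -0.41 ± 0.023 for Cdh2 (adjusted p = 4.2e-24). It was -0.33 ± 0.035 for Ctnna3, -0.31 ± 0.039 for Dsg2, -0.24 ± 0.025 for Pkp2, -0.15 ± 0.030 for Dsc2 and 0.24 ± 0.027 for Tjp1. Dsp, with opposite differences at the 2 ages, stood at -0.0020 ± 0.019 (adjusted p = 0.94). In this comparison each of KO and control includes 1 age with and 1 age without Y-linked counts.

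Between 1w and 3w on the TMM scale, Gja1 and Gjc1 fell and Dsp, Pkp2, Jup and Dsc2 rose, in KO and control alike. Several of these directions rest on the scaling. In control the TMM factors were 1.14 and 1.15 at 1w and 0.782 and 0.759 at 3w. Set against unscaled totals, Dsp fell in control, from 21223 of 20818285 and 32012 of 31702513 counts to 45917 of 53671626 and 31676 of 37293627. On those totals Jup and Dsc2 fell in KO and control, and Dsg2 and Cdh2 fell in KO. In KO, 6 of the 10 genes were higher at 3w than at 1w and 2 were lower, beside 67.9% of all genes called (33.2% higher and 34.6% lower). In control, 4 were higher and 6 lower, beside 70.8% of all genes called (34.9% higher and 36.0% lower). Dsg2 and Cdh2 rose in KO and fell in control. Y-linked counts also split each age comparison, being near 0 at 3w in KO and at 1w in control, so within KO or control an age change and a shift with those transcripts cannot be told apart. The median of the 10 genes was 0.23 in KO, beside -0.020 over all genes, and -0.15 in control, beside -0.025 over all genes. The 6 tested cardiomyocyte markers rose with age in both, with medians of 0.75 in KO and 0.87 in control. The 6 tested fibroblast markers fell in both, with medians of -1.46 in KO and -2.18 in control, and 6 of the 7 endothelial markers fell in both. Of the 6 smooth muscle and pericyte markers, 5 fell in KO and 6 in control (medians -0.60 and -1.66). The atrial and epicardial markers moved in opposite ways, with 5 of 6 atrial markers lower at 3w in KO and 5 of 6 higher in control (medians -4.76 and 1.34). Of the 8 epicardial markers, 6 were lower at 3w in KO and 6 higher in control (medians -1.09 and 1.40). Macrophage markers were higher in 1 and lower in 3 of 6 cases in KO, against 4 higher and 1 lower in control. The part of these marker lists in the age differences was not tested.

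**Figure D3:**
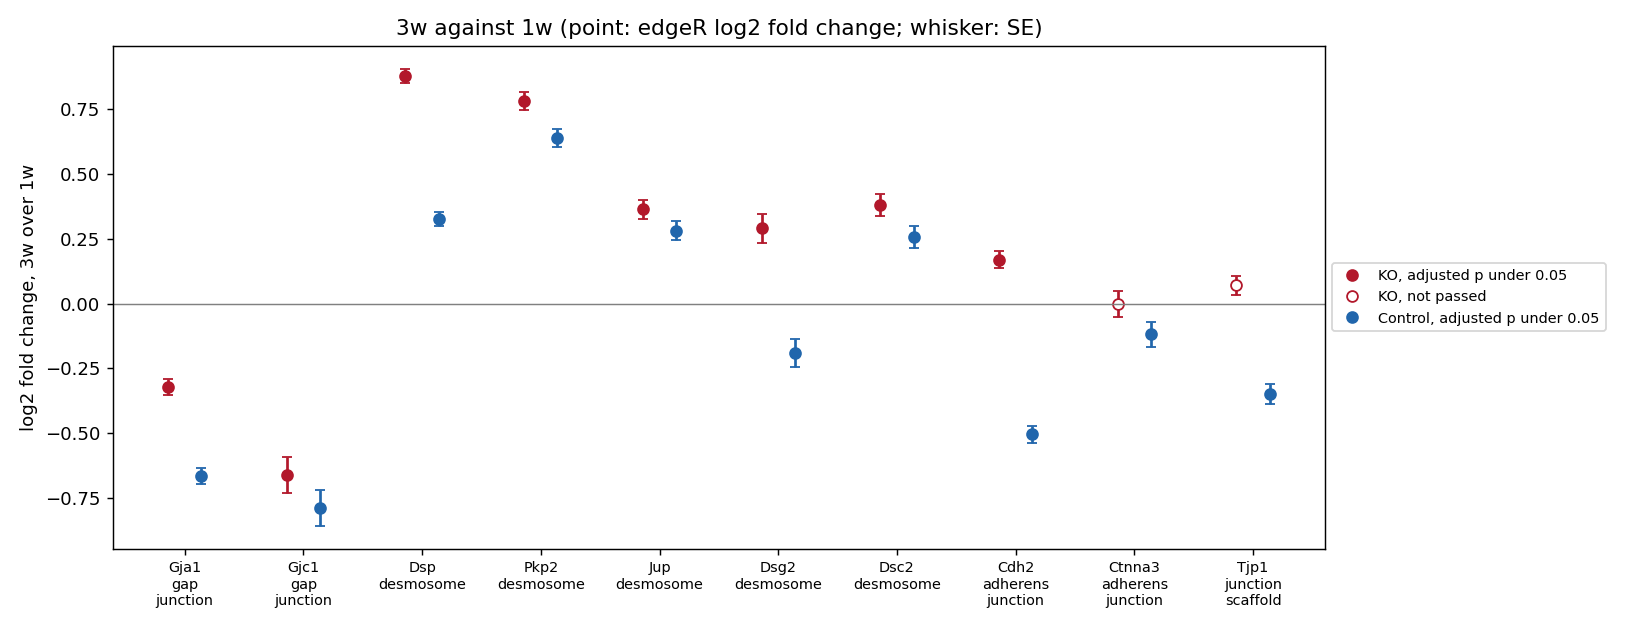
Points are edgeR log2 fold changes of 3w over 1w (vertical axis) for each junction gene in KO and in control, with whiskers of 1 SE; filled points passed an adjusted p under 0.05. Gja1 and Gjc1 lie below 0, and Dsp, Pkp2, Jup and Dsc2 above 0 in both, while the KO point lies above the control point for all 10 genes.

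The KO difference changed between the ages for Cdh2, Dsp, Dsg2, Tjp1, Gja1 and Pkp2. For each of them the KO difference at 3w less that at 1w was above 0, and these 6 higher and 0 lower of 10 stand beside 35.6% of all genes called (17.6% higher and 17.9% lower). It was 0.67 ± 0.045 for Cdh2 (adjusted p = 7.6e-20), 0.55 ± 0.038 for Dsp (adjusted p = 4.1e-19) and 0.48 ± 0.078 for Dsg2 (adjusted p = 8.6e-07). Tjp1 had 0.42 ± 0.054 (adjusted p = 2e-09), Gja1 0.34 ± 0.043 (adjusted p = 1.5e-09) and Pkp2 0.14 ± 0.049 (adjusted p = 0.018). The values of Gjc1 (0.13 ± 0.099), Ctnna3 (0.12 ± 0.070), Dsc2 (0.12 ± 0.060) and Jup (0.083 ± 0.051) did not pass. Pkp2 was no longer called without either library of KO at 1w or replicate 1 of KO at 3w (0.13 to 0.15, adjusted p = 0.059 to 0.078), and Jup was called without replicate 1 of control at 3w (0.15, adjusted p = 0.020) or of control at 1w (0.14, adjusted p = 0.035). The median of the 10 genes was 0.24, beside -0.0015 over all genes. This comparison sets KO at 3w and control at 1w, without Y-linked counts, against KO at 1w and control at 3w, with them, so the change of the KO difference with age and a difference that follows those transcripts cannot be told apart.

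Summed by structure, the desmosomal genes reached 1802 ± 2.8 CPM in 3w KO cells, against 1589 ± 6.7 CPM in 3w control cells, and 1057 ± 1.0 CPM in 1w KO cells, against 1259 ± 4.4 CPM in 1w control cells (SD, n = 2 each). Dsp made up 68.8 to 74.5% of these sums, so they follow that gene. The 2 gap junction genes summed to 308.8 ± 2.6 CPM in 3w KO cells, against 375.6 ± 4.7 CPM in 3w control cells, and 391 ± 0.24 CPM in 1w KO cells, against 598 ± 13 CPM in 1w control cells. The adherens junction genes summed to 298.6 ± 1.1 CPM in 3w KO cells, against 319 ± 1.0 CPM in 3w control cells, and 269.8 ± 4.2 CPM in 1w KO cells, against 438 ± 9.2 CPM in 1w control cells. The CPM ratio of Gja1 to Dsp was 0.222 and 0.217 in 3w KO cells, against 0.327 and 0.325 in 3w control cells, and 0.503 and 0.506 in 1w KO cells, against 0.655 and 0.644 in 1w control cells. It was lower in KO than in control at each age and lower at 3w than at 1w, with no overlap between groups. Cdh2 to Dsp followed the same order, at 0.195 and 0.194 in 3w KO cells, against 0.250 and 0.245 in 3w control cells, and 0.315 and 0.322 in 1w KO cells, against 0.443 and 0.436 in 1w control cells. Ratios within a library do not depend on its scaling.

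Across the 8 libraries the 10 genes did not vary as a single group. Of 45 pairs, 24 had a positive and 21 a negative Pearson r of log2 CPM, with a median of 0.14. The 4 pairs above 0.9 were Pkp2 with Dsc2 (0.987), Dsp with Jup (0.919), Pkp2 with Jup (0.919) and Cdh2 with Dsg2 (0.901). Gja1 varied most with Cdh2 (0.851) and Ctnna3 (0.808), and against Jup (-0.664) and Dsp (-0.534). Gjc1 ran against Jup (-0.945) and Pkp2 (-0.920), and Tjp1 had no r above 0.437 with any of the others. The 8 points are 4 groups of 2 libraries, so the values describe mainly the group means.

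**Figure D4:**
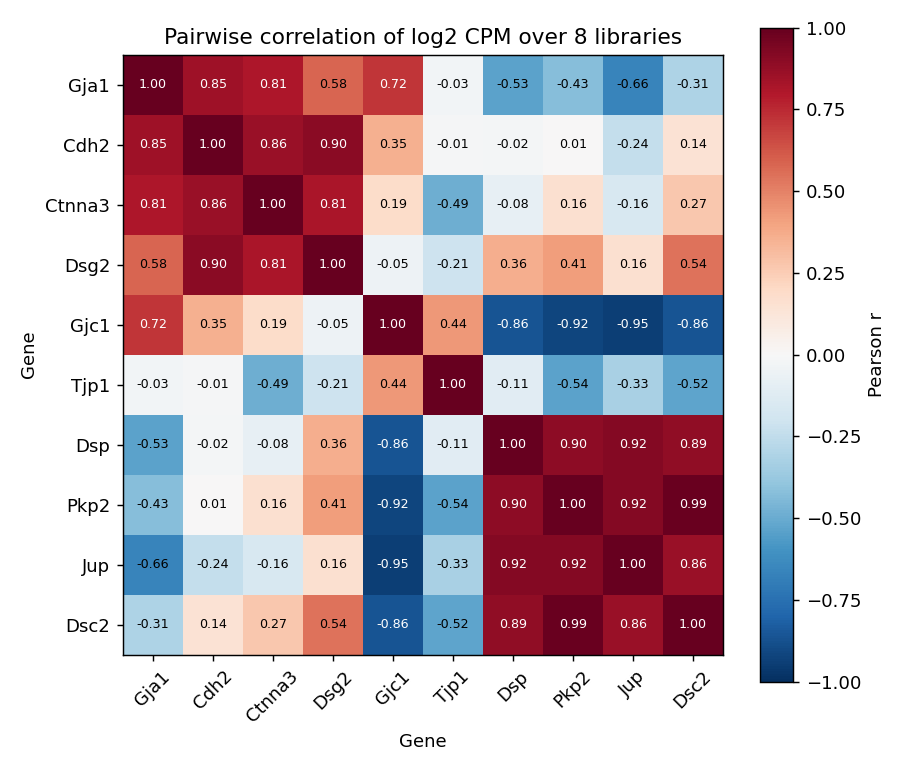
The grid gives Pearson's r of log2 CPM over the 8 libraries for each pair of junction genes, in colour between -1 and 1. Pkp2, Dsc2, Jup and Dsp form a block of high values, up to 0.987, and Gja1, Cdh2 and Ctnna3 another. The desmosomal gene Dsg2 is high with Cdh2 (0.901) and Ctnna3 (0.814), and lower with Gja1 (0.582). Gjc1 is negative with Jup (-0.945).

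The 5 genes most like Gja1 over the 8 libraries, of 6856 with a mean of at least 10 CPM, were Nedd4 (r = 0.991), Snap91 (0.988), Gm12183 (0.987), Agps (0.987) and Stag2 (0.986). Nedd4, a ubiquitin ligase gene, had 378 and 382 CPM in 3w KO cells, against 414 and 408 CPM in 3w control cells, and 426 and 421 CPM in 1w KO cells, against 567 and 539 CPM in 1w control cells. Snap91, which encodes a clathrin assembly protein, spanned a wider range, with 2.90 and 2.65 CPM in 3w KO cells, against 7.87 and 7.67 CPM in 3w control cells, and 9.73 and 9.08 CPM in 1w KO cells, against 38.6 and 38.0 CPM in 1w control cells. All 5 were highest in 1w control cells and lowest in 3w KO cells, like Gja1, which largely follows from their choice by r.

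Of 18 other connexin genes, 3 were tested. Gja3, or connexin 46, was lower in 1w KO cells, with a change of -0.40 ± 0.066, and higher at 3w than at 1w in KO, by 0.30 ± 0.067, with -0.046 ± 0.065 in control, which did not pass. Gja4, the connexin 37 of vessel walls, was higher in KO by 0.73 ± 0.17 at 3w and 0.35 ± 0.11 at 1w. Gja4 stood at 3.42 and 3.14 CPM in 3w KO cells, against 1.91 and 2.08 CPM in 3w control cells, and fell with age, with a change of -1.25 ± 0.13 in KO and -1.63 ± 0.15 in control. Gja5, the connexin 40 of atria and conduction tissue, was also called higher in KO at 3w, but on 8 and 6 counts, against 1 and 0 in control. It reached at most 0.476 CPM, and 95.1% of its exon bases lie in the spans of other genes.

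Of 11 other desmosomal genes, Perp and Pkp4 were tested. Perp, which encodes a tetraspan desmosomal membrane protein, had 149 and 147 CPM in 3w KO cells, against 180.1 and 191 CPM in 3w control cells, and 156 and 153 CPM in 1w KO cells, against 258 and 269 CPM in 1w control cells. KO was lower without overlap at both ages, with a change of -0.33 ± 0.035 at 3w and -0.77 ± 0.034 at 1w. Pkp4, a relative of plakophilin 2, was higher in 3w KO cells by 0.25 ± 0.037 and lower at 1w, with a change of -0.42 ± 0.035. On the TMM scale Pkp4, unlike Dsp and Pkp2, fell with age, with a change of -0.21 ± 0.036 in KO and -0.89 ± 0.036 in control. Perp fell with age in control (-0.51 ± 0.034), and its value in KO was -0.064 ± 0.035 (adjusted p = 0.10).

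Of 10 other catenins and linkers of the adherens junction, 9 were tested, and 6 were higher and 2 lower in 3w KO cells, against 2 higher and 4 lower in 1w KO cells, beside 24.4% higher and 24.8% lower at 3w and 23.0% higher and 20.0% lower at 1w over all tested genes. Ctnna1, the alpha-E-catenin gene, had 836 and 836 CPM in 3w KO cells, against 679.6 and 709 CPM in 3w control cells, and 695 and 691 CPM in 1w KO cells, against 762 and 751 CPM in 1w control cells. KO was higher in Ctnna1 at 3w (0.27 ± 0.028) and lower at 1w (-0.13 ± 0.028), the directions of Dsp. Afdn, which encodes the actin-binding protein afadin, was higher in 3w KO cells by 0.70 ± 0.050, and the beta-catenin gene Ctnnb1 by 0.32 ± 0.038, with 67.8% of the exon bases of Ctnnb1 in the spans of other genes. Lmo7 was lower in KO at both ages, with a change of -0.32 ± 0.031 at 3w and -0.46 ± 0.031 at 1w. Of 7 other cadherins, 5 were tested, with 2 higher and 0 lower in 3w KO cells, and 3 higher and 1 lower at 1w. Cdh5, the cadherin of endothelial cells, was higher in KO by 0.45 ± 0.036 at 3w and 0.12 ± 0.032 at 1w, and fell with age, with a change of -1.42 ± 0.034 in KO and -1.74 ± 0.035 in control.

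Other scaffold and attachment genes of the disc mostly rose with age. Of 13 tested of 14 listed, 11 rose and 1 fell in KO, with a median of 0.82, and 10 rose and 1 fell in control, with a median of 0.56. Over all tested genes 33.2% were higher and 34.6% lower in KO, with a median of -0.020, and 34.9% higher and 36.0% lower in control, with a median of -0.025. Xirp2, which encodes an actin-binding protein of the disc and has 74.4% of its exon bases in the spans of other genes, rose by 1.82 ± 0.038 in KO and 1.66 ± 0.039 in control, and Des, the desmin of the intermediate filaments that desmoplakin holds, by 1.01 ± 0.027 in KO and 1.36 ± 0.027 in control. In KO against control, 6 were higher and 7 lower at 3w, and 4 were higher and 7 lower at 1w, beside 24.4% higher and 24.8% lower at 3w and 23.0% higher and 20.0% lower at 1w over all tested genes. Myzap, which encodes a disc protein that binds desmoplakin and ZO-1, was lower in 3w KO cells, with a change of -0.39 ± 0.031, and Nrap was lower in 1w KO cells, with a change of -0.27 ± 0.030. Cxadr, the coxsackievirus and adenovirus receptor gene, was higher in 3w KO cells by 0.68 ± 0.12 and lower at 1w, with a change of -0.60 ± 0.13, at no more than 8.97 CPM, with 84.0% of its exon bases in the spans of other genes.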

How the data were processed

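Counts per gene were deposited as 1 table of whole numbers. Per the submitters' processing notes, the authors used FastQC, MultiQC, HISAT2, featureCounts and DESeq2 with mm10. Tool versions, strand setting and annotation: not given in the sources used here. Libraries were made from total RNA with SMART and Nextera XT kits, per the labels' protocols. GENCODE M21 named 54723 of the IDs and left 29 unnamed.

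Genes were kept by filterByExpr (minimum count 10, minimum total 15), and library sizes were scaled by TMM, with factors of 0.759 to 1.23. All tests came from 1 fit of the 4 groups in edgeR (quasi-likelihood F-test, robust, 4 residual degrees of freedom, common coefficient of variation 3.03%), adjusted by Benjamini-Hochberg over all 14665 genes, with calls at an adjusted p under 0.05. The SE is the log2 fold change over the root of F. For correlations, log2 CPM had a prior count of 2. The procedure was run on counts simulated with the spread fitted to these libraries, which cannot show whether calls would hold across animals. The libraries of a group differed by more than sampling noise (chi-square per gene 1.48 to 7.65) and were all kept.

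The members and the gene lists were chosen with earlier results of these data known. Genes of the other lists are named if called and among the 4 largest changes at a mean of at least 1 CPM. Gja5 and the KO values of Ctnna1 are exceptions, which were chosen after their values were seen. The age values of Gja3 in control and of Perp in KO also fall outside this rule. They did not pass and are given beside called values of the same genes. Alternatives were DESeq2, its size factors, no filter, no robust estimation, mitochondrially encoded genes left out, fits of 2 groups, an additive fit, blocks and leaving out each library. Software was R 4.3.3, edgeR 4.0.16, limma 3.58.1 and DESeq2 1.42.0.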

Additional observations from a re-analysis of the deposited data

Results flagged for a closer look

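The KO difference itself differed between 3w and 1w for 6 of the 10 junction genes, by a test of that difference within the fit of all 4 groups, beside 35.6% of all genes tested (17.6% higher and 17.9% lower). The KO log2 fold change at 3w minus its value at 1w was 0.67 for Cdh2, 0.55 for Dsp, 0.48 for Dsg2, 0.42 for Tjp1, 0.34 for Gja1 and 0.14 for Pkp2. Of the 6, only Dsp was called at both ages in opposite directions. This test sets the 4 libraries without Y-linked counts against the 4 libraries with them, and the 2 cannot be told apart. The call for Pkp2 was lost in 5 of 15 alternatives, among them DESeq2, no filter on low counts and the analyses without KO at 1w replicate 1, KO at 1w replicate 2 or KO at 3w replicate 1.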

How the results depend on the processing

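In alternatives that left out no single library, 7 of the 10 junction genes were called at 1w and 7 with both ages weighted equally. The number was 5 to 6 at 3w, 8 to 9 with age in KO and 9 to 10 with age in control. For the change of the KO difference between ages it was 5 to 6. Of all genes, the main fit called 43.0% at 1w, 52.8% over both ages and 49.2% at 3w. It called 67.9% with age in KO, 70.8% in control and 35.6% for the change. The number over all genes varied with the alternative, as given below. Of 930 values of single genes under an alternative, 885 kept direction and side of the threshold, 13 lost and 10 gained the call, and 22 changed sign. Those 22 came from results near 0 that were not called. The age difference of Ctnna3 in KO was 0.010 with DESeq2 and with its size factors and 0.0035 in a fit of 2 groups, and -0.020 to 0.050 leaving out 1 library. With both ages weighted equally, Jup was -0.0076 with DESeq2, -0.0078 with its size factors and -0.042 to 0.032 leaving out 1 library, Dsp was 0.0032 without a filter and -0.022 to 0.0045 leaving out 1 library, and Gjc1 was -0.057 to 0.020. Leaving out 1 library also gave Jup -0.024 to 0.089 at 3w and -0.093 to 0.020 at 1w, and Gjc1 -0.024 to 0.10 at 3w. The cause was not tested.

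The age call of Ctnna3 in control was lost in 8 of 15 alternatives (adjusted p = 0.023 to 0.17) and the change of the KO difference of Pkp2 in 5 of 15 (adjusted p = 0.012 to 0.17). Cdh2 at 3w was called in 4 of 16 alternatives (adjusted p = 0.021 to 0.14), including that without mitochondrially encoded genes (-0.071, adjusted p = 0.049). Over all genes DESeq2 called 4043, against 6305 with edgeR, at 1w and 3351, against 5215, for the change between ages, and an additive fit called 4506, against 7746, over both ages. Deviations of libraries with the same replicate number were not correlated between groups (r -0.022 to 0.0083). With 2 libraries per group this cannot exclude a pairing by injection day, which the labels share within each age. A replicate block left 5 members called at 3w, 7 at 1w, 8 and 10 with age in KO and control, 6 for the change between ages and 7 over both ages. The main fit called 49.2, 43.0, 67.9, 70.8, 35.6 and 52.8% of all genes in these comparisons, in the same order.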
